A study of Mus musculus with 9 samples.

Results

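Pre-B receptor signaling and recombination genes were examined for BAP1 binding in Ba/F3 cells. The 9 genes were *Cd79a*, *Cd79b*, *Vpreb1*, *Igll1*, *Syk*, *Btk*, *Blnk*, *Rag1* and *Rag2*, chosen by name from the 37273 genes of the GENCODE M1 annotation of the mouse genome build mm9, of which 22367 are protein-coding. For each gene, every BAP1 peak was listed whose middle lay within 1 kb of a transcription start site (TSS) of the gene, called gene-proximal here, together with every peak inside the gene or within 50 kb of either end. *Syk* was found in this annotation under its older symbol *Sykb*.

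The peaks came from chromatin immunoprecipitation and sequencing (ChIP-Seq) of Ba/F3, an established murine line of B cell precursors that depends on interleukin-3 for growth. Wild type cells were precipitated with an anti-BAP1 antibody, and cells stably expressing triple-FLAG-tagged murine BAP1 with an anti-FLAG antibody, each in 1 sample. A single list of 13164 peaks, each 200 bp wide, was deposited for both samples together. It has no height or score and no value per sample, so that binding is reported as listed or not listed, with no error between replicates, and the read depth behind a peak is unknown. Intervals given with shares are 95% Wilson intervals, which cover counting error only. Expression of the genes in Ba/F3 was not analysed here.

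The pre-B cell receptor is the checkpoint of early B cell development. It joins an immunoglobulin heavy chain to the surrogate light chain, made of the products of *Vpreb1* and *Igll1*, and signals through the CD79A and CD79B chains to the kinase SYK, the adaptor BLNK and the kinase BTK. The heavy chain gene itself is assembled by the RAG1 and RAG2 recombinase. BAP1 is a deubiquitinase that removes ubiquitin from histone H2A.

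The sequences of 5 peaks are shown first, because they are the nearest listed peaks of all of the genes but *Cd79b* and *Blnk*. They are read from the mm9 genome on the plus strand, 5′ to 3′, with capitals marking matches on either strand to the motifs searched. The motifs were those of ETS factors (CCGGAAG), YY1 (AAGATGGC), NRF1 (GCATGCGC), the SP and KLF families (GGGCGG), NF-Y (CCAAT), CRE-binding factors (TGACGTCA) and the TATA box (TATAAA), E-boxes of the forms CAGCTG and CAGGTG, and the motifs of EBF1 (CCCNNGGGA), Ikaros (TGGGAA), RUNX (TGTGGT) and PU.1 (GAGGAAGT). Adjacent or overlapping matches run together as a single stretch of capitals, as happens where the Ikaros match overlaps that of NF-Y in the *Syk* peak.
Peak at *Vpreb1* and *Top3b*, chr16:16870798-16870997: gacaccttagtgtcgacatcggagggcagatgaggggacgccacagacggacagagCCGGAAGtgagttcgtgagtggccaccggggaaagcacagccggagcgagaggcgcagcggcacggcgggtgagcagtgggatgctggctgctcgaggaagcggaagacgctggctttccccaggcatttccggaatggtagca
Peak in *Syk* intron 1, chr13:52681734-52681933: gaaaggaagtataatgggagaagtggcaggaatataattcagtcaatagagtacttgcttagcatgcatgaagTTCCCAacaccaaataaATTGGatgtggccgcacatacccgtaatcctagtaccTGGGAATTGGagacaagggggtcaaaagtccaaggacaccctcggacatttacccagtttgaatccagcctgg
Peak upstream of *Btk* at the *Rpl36a* TSS, chrX:131120075-131120274: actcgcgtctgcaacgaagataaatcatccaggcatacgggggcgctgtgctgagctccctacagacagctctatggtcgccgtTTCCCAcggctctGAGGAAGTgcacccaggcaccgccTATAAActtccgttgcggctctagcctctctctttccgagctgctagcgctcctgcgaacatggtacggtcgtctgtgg
Peak downstream of *Cd79a* at an *Arhgef1* TSS, chr7:25687883-25688082: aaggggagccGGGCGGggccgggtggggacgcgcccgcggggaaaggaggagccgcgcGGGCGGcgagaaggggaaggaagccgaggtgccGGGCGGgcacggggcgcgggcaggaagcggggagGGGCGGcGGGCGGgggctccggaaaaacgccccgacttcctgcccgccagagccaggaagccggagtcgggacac
Peak near *Rag1* and *Rag2* at the *Traf6* TSS, chr2:101518485-101518684: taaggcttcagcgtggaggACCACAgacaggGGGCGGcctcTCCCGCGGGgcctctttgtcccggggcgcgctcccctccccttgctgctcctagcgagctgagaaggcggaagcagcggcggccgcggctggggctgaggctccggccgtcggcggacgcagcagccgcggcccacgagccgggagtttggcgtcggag

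*Vpreb1* was the only one of the 9 genes with a gene-proximal BAP1 peak, which makes 11.1% (interval 1.99 to 43.5%). Across the annotation, 26.2% of all genes and 39.6% of protein-coding genes had one, and the interval of the 9 genes holds both shares. Peaks further away were common: 8 of the 9 genes had a peak inside the gene or within 50 kb, against 55.1% of all genes and 65.6% of protein-coding genes. *Blnk* was the exception. No interval was computed for this count, and it does not rest on independent genes. *Vpreb1* and *Igll1* listed the same peaks, as did *Rag1* and *Rag2*. These 8 genes shared 14 distinct peaks, of which 11 lay within 1 kb of an annotated TSS and 3 lay further from every TSS. Of the 11, 10 were at the TSSs of other genes alone, and the 11th, that at *Vpreb1*, was also at a TSS of another gene. Only 2 of the 14 lay inside one of the 9 genes, in *Vpreb1* and in *Syk*.

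**Figure D1:**
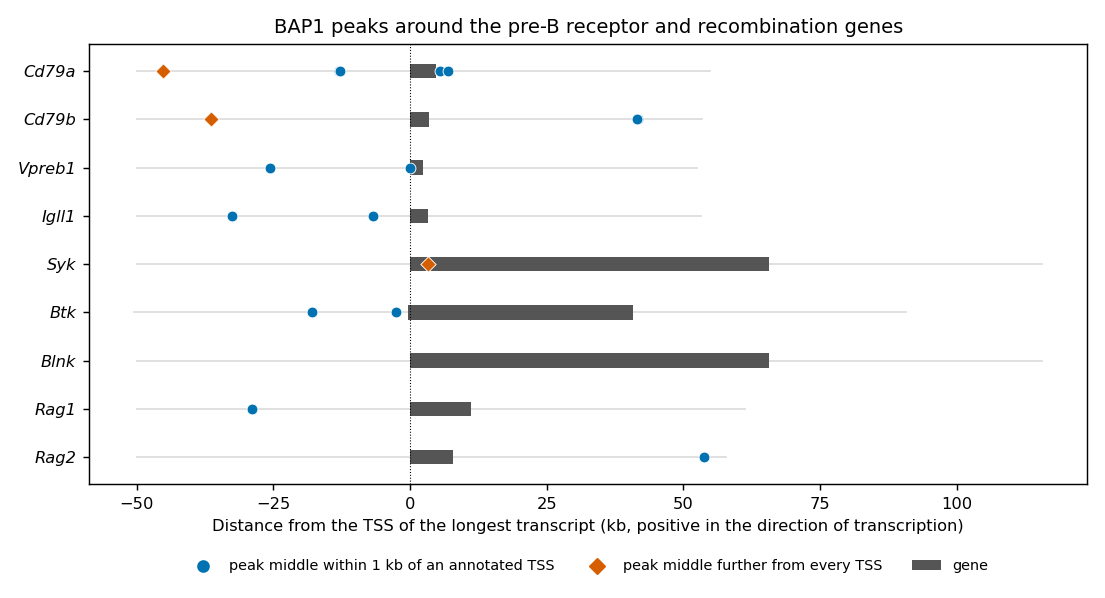
Position of each listed BAP1 peak (points) relative to the TSS from which the longest transcript of the gene starts (x axis, kb, positive in the direction of transcription), with the gene as a dark bar and the range searched as a pale line. Blue circles are peaks within 1 kb of an annotated TSS of any gene and orange diamonds are the 3 peaks further from every TSS, and a peak lies on the gene itself in *Vpreb1* and *Syk* alone. Both peaks near *Rps19* in the *Cd79a* row and both near *Smarcd2* in the *Cd79b* row are drawn almost on top of each other.

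The receptor subunits were considered first. *Vpreb1* encodes the V-like part of the surrogate light chain and occupies 16868495 to 16870936 of chromosome 16, minus strand. Its peak middle lay 39 bp downstream of the TSS at 16870936, from which 2 noncoding processed transcripts start. The protein-coding transcript of *Vpreb1* starts 1588 bp further along, at 16869348, and the peak lay 1549 bp upstream of that TSS, outside the 1 kb window. On the opposite strand, *Top3b*, the gene of topoisomerase III beta, starts at 11 annotated TSSs between 16870829 and 16870933, and the TSS nearest to the peak middle was 3 bp away. Transcripts from these TSSs run across the noncoding *Vpreb1* TSS, so that both genes overlap there on opposite strands. The *Vpreb1* peak was therefore at overlapping starts of both genes, nearer to *Top3b* than to *Vpreb1*.

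*Igll1*, the gene of the lambda-like part of the surrogate light chain, is the neighbor of *Vpreb1* on the same strand, from 16860764 to 16864078. It had no gene-proximal peak. Both genes listed the same 2 peaks, so their values are not independent. The *Vpreb1* and *Top3b* peak was 6819 bp upstream of *Igll1*, and the peak at *Ppm1f*, a protein phosphatase gene, was 32538 bp upstream of *Igll1* and 25680 bp upstream of *Vpreb1*.

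*Cd79a*, which encodes the immunoglobulin alpha signaling chain, had no gene-proximal peak but had the most peaks of the 9 genes, with 5 listed, or 4.77 per 100 kb of the range searched. The gene occupies 25682400 to 25687216 of chromosome 7, plus strand. A pair of peaks at *Rps19*, a gene of the small ribosomal subunit, lay 13062 and 12817 bp upstream of the *Cd79a* TSS. Another pair at TSSs of *Arhgef1*, a guanine nucleotide exchange factor gene, lay 5582 and 6982 bp downstream of the TSS, which is 766 and 2166 bp past the end of the gene. The last was 45152 bp upstream, in intergenic sequence, and its nearest annotated TSS of any gene was 9973 bp away.

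*Cd79b*, the gene of the immunoglobulin beta chain, occupies 106172655 to 106176076 of chromosome 11, minus strand, and had no gene-proximal peak. Its nearest peak was 36306 bp upstream of the TSS at 106176076, within *Scn4a*, a sodium channel gene. There it lay in the first intron of Scn4a-002, a transcript of 2 exons. The nearest annotated TSS of any gene was one of *Scn4a*, 1679 bp away. *Scn4a* itself had no gene-proximal peak, and is named here because of this peak. The other 2 peaks lay at *Smarcd2*, which encodes a SWI/SNF subunit, 41245 and 41411 bp downstream of the other *Cd79b* TSS, at 106175843.

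Of the kinases and the adaptor, *Syk* and *Btk* had a nearby peak and *Blnk* did not. *Syk*, the kinase recruited to the phosphorylated CD79 chains, was the only gene with a peak of its own that was not at the TSS of any gene. The gene occupies 52678542 to 52744161 of chromosome 13, plus strand. The peak lay in intron 1, which runs from 52678975 to 52706164, at 3291 bp downstream of the first TSS and 2961 bp downstream of the nearest one. No other protein-coding gene had a TSS within 50 kb of *Syk*.

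*Btk*, the Tec family kinase that acts on phospholipase C gamma, occupies 131076875 to 131118109 of chromosome X, minus strand. The nearest peak was 2065 bp upstream of the outermost TSS, a noncoding one, and 2495 bp upstream of the TSS of the transcript Btk-001. This peak was at *Rpl36a*, a gene of the large ribosomal subunit, 19 bp upstream of its TSS. The second peak was 17454 bp upstream, with its middle in an exon of *Gla*, which encodes alpha-galactosidase A. It lay within 1 kb of a TSS of both *Gla* and *Hnrnph2*, which encodes an RNA-binding protein. The distances of *Btk* and *Syk* are the closest outside the 1 kb window.

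*Blnk*, the adaptor that brings BTK and phospholipase C gamma to SYK, occupies 41003417 to 41069025 of chromosome 19, minus strand, and was the only one of the 9 genes with 0 peaks in the range searched. Its nearest peak was 162918 bp downstream of a TSS, and 79.2% of protein-coding genes had a nearer one.

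*Rag1* and *Rag2*, the recombinase genes, are neighbors on chromosome 2, *Rag1* (minus strand) at 101478439 to 101489658 and *Rag2* (plus strand) at 101464875 to 101472685. A single peak was listed for both. It lay at the TSS of *Traf6*, the gene of a ubiquitin ligase of innate immune signaling, 28926 bp upstream of *Rag1* and 53681 bp downstream of the nearest *Rag2* TSS, or 45899 bp past the end of *Rag2*.

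Ordered by the distance from a TSS to the nearest peak, the genes were *Vpreb1* (39 bp), *Btk* (2065 bp), *Syk* (2961 bp), *Cd79a* (5582 bp), *Igll1* (6819 bp), *Rag1* (28926 bp), *Cd79b* (36306 bp), *Rag2* (53681 bp) and *Blnk* (162918 bp). The median was 6819 bp, against 16572 bp over protein-coding genes and 40677 bp over all annotated genes. With *Vpreb1* left out, the median of the other 8 was 17872.5 bp, against 82969 bp over the 13517 protein-coding genes that lacked a gene-proximal peak. The spread was wide in both, from 2065 to 162918 bp over the 8, and with quartiles of 26300 and 253246 bp over the 13517. The density had a median of 1.42 peaks per 100 kb over the 9 genes and 0.938 over protein-coding genes, with quartiles of 0 and 2.51 in the latter. Distances are not independent between *Vpreb1* and *Igll1*, nor between *Rag1* and *Rag2*.

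**Figure D2:**
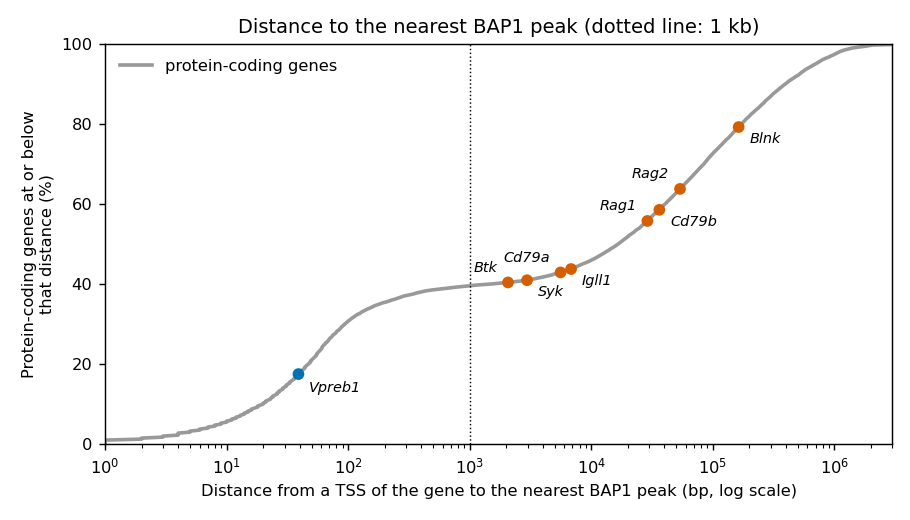
Share of protein-coding genes (y axis, %) whose nearest BAP1 peak lies at or below a given distance from a TSS (x axis, bp, log scale), with the 9 genes placed on the curve. *Vpreb1* (blue) is left of the 1 kb line, *Btk*, *Syk*, *Cd79a* and *Igll1* lie between 2065 and 6819 bp, and *Blnk* is furthest at 162918 bp.

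The peaks of these loci belonged mostly to the promoters of neighbors. Neighbors were the 19 other protein-coding genes with a TSS within 50 kb of the 9 genes. Of these neighbors, 9 had a gene-proximal peak, which makes 47.4% (interval 27.3 to 68.3%) against 39.6% of protein-coding genes. They were *Rps19*, *Arhgef1*, *Smarcd2*, *Top3b*, *Ppm1f*, *Rpl36a*, *Gla*, *Hnrnph2* and *Traf6*. *Rps19* and *Rpl36a* encode ribosomal proteins, *Smarcd2* a chromatin remodeler and *Top3b* a topoisomerase.

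Most of the 9 genes had a lower promoter CpG ratio than the 9 neighbors with a gene-proximal peak. The ratio is the number of CG pairs over that expected from the C and G content, within 500 bp of the TSS of the longest transcript. Protein-coding genes were cut by this ratio into 5 classes of equal size, from class 1 (lowest) to class 5 (highest). A gene-proximal peak was present in 3.31% of class 1, 9.75% of class 2, 39.9% of class 3, 68.0% of class 4 and 76.9% of class 5. The median ratio was 0.764 in genes with such a peak and 0.296 in genes without.

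Of the 9 genes, 7 were in the lowest 2 classes, where 6.53% of protein-coding genes had a gene-proximal peak, and 0 of the 7 had one. These were *Igll1* (0.117), *Cd79b* (0.177) and *Rag2* (0.179) in class 1, and *Btk* (0.253), *Blnk* (0.256), *Rag1* (0.257) and *Cd79a* (0.331) in class 2. *Vpreb1* (0.718) and *Syk* (0.768) were in class 4, and of these *Vpreb1* alone had a gene-proximal peak. The value of *Vpreb1* belongs to its noncoding TSS beside those of *Top3b*, and at its protein-coding TSS the ratio was 0.142. *Syk* was the only gene of the 9 with a CpG-rich start of its own, and its peak was not there but in the intron. The 9 neighbors with a gene-proximal peak ranged from 0.438 in *Ppm1f* to 0.913 in *Smarcd2*, and all 9 were above the 7 genes of classes 1 and 2. These neighbors were picked for having a peak, which is more common at a high ratio, so high values were likely beforehand. Neighbors without a peak were not compared, so whether the 9 genes differ from their surroundings was not tested.

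**Figure D3:**
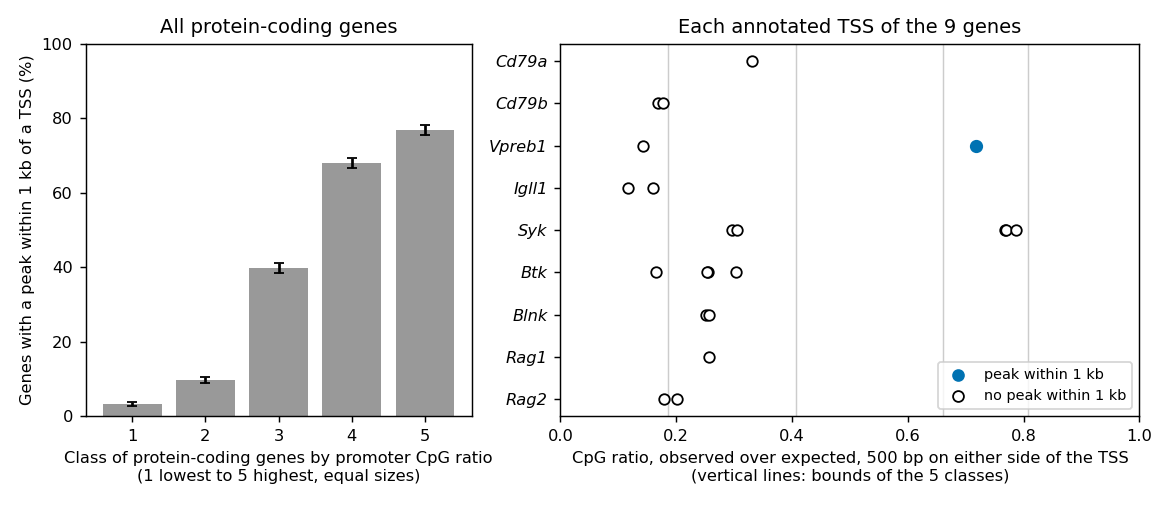
Left, share of protein-coding genes with a gene-proximal BAP1 peak (y axis, %) by class of the promoter CpG ratio, with 95% Wilson intervals, rising from 3.31 to 76.9%. Right, the CpG ratio (x axis) at each annotated TSS of the 9 genes, filled where a peak lies within 1 kb, which is the case at the noncoding *Vpreb1* TSS alone.

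The promoters of 6 genes are shown to set beside the peaks, 5 of them CpG-poor and that of *Syk* CpG-rich. Each is the 250 bases upstream of the TSS, from mm9 on the strand of the gene, 5′ to 3′, with motif matches in capitals.
*Cd79a*, plus strand, chr7:25682150-25682399: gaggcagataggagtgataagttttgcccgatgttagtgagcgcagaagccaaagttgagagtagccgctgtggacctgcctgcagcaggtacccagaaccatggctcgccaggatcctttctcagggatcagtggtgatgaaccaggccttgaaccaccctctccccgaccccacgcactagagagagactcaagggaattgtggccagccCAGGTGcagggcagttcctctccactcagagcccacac
*Cd79b*, transcript Cd79b-201, minus strand, chr11:106175844-106176093: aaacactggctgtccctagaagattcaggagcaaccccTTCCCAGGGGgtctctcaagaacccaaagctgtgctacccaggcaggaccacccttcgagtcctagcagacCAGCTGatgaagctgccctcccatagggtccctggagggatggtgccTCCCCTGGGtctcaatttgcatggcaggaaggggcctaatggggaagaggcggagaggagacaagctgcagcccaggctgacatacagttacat
*Vpreb1*, protein-coding TSS, minus strand, chr16:16869349-16869598: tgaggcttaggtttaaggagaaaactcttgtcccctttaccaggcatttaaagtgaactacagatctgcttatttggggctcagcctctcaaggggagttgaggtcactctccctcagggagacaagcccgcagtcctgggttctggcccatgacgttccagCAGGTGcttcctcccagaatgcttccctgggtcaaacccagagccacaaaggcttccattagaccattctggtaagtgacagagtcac
*Igll1*, TSS at 16864078, minus strand, chr16:16864079-16864328: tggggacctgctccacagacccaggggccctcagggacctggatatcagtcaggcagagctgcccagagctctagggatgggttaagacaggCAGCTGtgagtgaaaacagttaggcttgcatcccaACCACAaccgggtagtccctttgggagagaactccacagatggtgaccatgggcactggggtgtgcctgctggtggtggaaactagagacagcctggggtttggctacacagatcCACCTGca
*Rag1*, minus strand, chr2:101489659-101489908: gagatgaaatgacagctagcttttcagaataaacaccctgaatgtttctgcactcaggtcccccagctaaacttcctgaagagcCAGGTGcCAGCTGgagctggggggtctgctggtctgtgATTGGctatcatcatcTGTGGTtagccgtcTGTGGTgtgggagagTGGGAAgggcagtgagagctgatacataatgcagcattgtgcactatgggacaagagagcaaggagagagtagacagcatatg
*Syk*, TSS at 52678542, plus strand, chr13:52678292-52678541: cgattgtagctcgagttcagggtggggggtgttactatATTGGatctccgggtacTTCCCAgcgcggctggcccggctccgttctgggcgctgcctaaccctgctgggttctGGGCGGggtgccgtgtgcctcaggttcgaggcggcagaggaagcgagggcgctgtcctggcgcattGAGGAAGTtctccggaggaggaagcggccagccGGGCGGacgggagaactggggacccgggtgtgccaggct

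The form CAGGTG of the E-box was found in the upstream sequence of at least 1 TSS in 6 of the 9 genes, *Cd79a*, *Vpreb1*, *Igll1*, *Syk*, *Blnk* and *Rag1*, and the form CAGCTG in 4, *Cd79b*, *Igll1*, *Syk* and *Rag1*. With 1 TSS per gene, each form was found in 3 of the 9, as were the Ikaros and the RUNX motif. Over the promoters of all protein-coding genes, counted at 1 TSS per gene and the same length, CAGGTG was present in 16.9% and CAGCTG in 11.8%. In BAP1 peaks the shares were 10.6% and 9.34%, over windows of 200 bp that are shorter than the promoters.

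The EBF1 motif was matched in *Cd79b* alone, at 2 places upstream of the TSS of Cd79b-201, the first of which overlaps an Ikaros match. With 1 TSS per gene it was matched in 0 of the 9 genes, against 6.22% of all promoters. *Rag1*, which has a single TSS, held both E-boxes side by side, the RUNX motif at 2 places, the Ikaros motif and NF-Y. The RUNX motif was present in 12.4% of all promoters, the Ikaros motif in 20.8% and NF-Y in 34.8%. The SP and KLF motif, found in 59.5% of BAP1 peaks and 40.9% of all promoters, was matched upstream of 2 of the 9 genes, *Vpreb1* at its noncoding TSS and *Syk*. PU.1 was matched upstream of *Syk*, and in 2.21% of all promoters. No match was found upstream of either *Rag2* TSS. ETS, YY1, NRF1, CRE and TATA box motifs had 0 matches in the promoters of the 9 genes, and were present in 8.57%, 1.68%, 2.76%, 1.96% and 12.2% of all promoters. A match is a stretch of letters and does not show that a factor was bound. Only the exact letters given were searched, so that a site spelled otherwise was missed. The lack of a match, as for EBF1, therefore does not show that a promoter lacks a site.

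The peaks themselves differed in composition. Over the whole list, a peak had a median GC content of 65.0% and a median of 17 CG pairs, with quartiles of 9 and 23. The *Vpreb1* and *Top3b* peak had 64.0% and 17, the *Arhgef1* peak shown had 78.5% and 28, and the *Traf6* peak had 74.0% and 24. The 3 peaks away from every TSS had 45.5% and 3 CG pairs in *Syk* intron 1, 52.5% and 1 upstream of *Cd79a*, and 57.5% and 2 in *Scn4a*. Their CG pairs were fewer than in each of the 11 peaks at a TSS, but their GC content was not always lower. The peak at *Gla* and *Hnrnph2* had 46.0% and 7 CG pairs, and a *Smarcd2* peak had 57.5% and 21.

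The *Vpreb1* and *Top3b* peak held an ETS match, the only ETS match in the 14 peaks, where 16.8% of all peaks held one. The *Arhgef1* peak shown held the SP and KLF motif at 5 places. The *Syk* intronic peak held the Ikaros motif and the NF-Y motif at 2 places each, which were present in 13.5% and 28.5% of all peaks. The sequence of the 14 peaks was largely unique in the genome when counted by exact words. A repeat whose bases have changed can pass this count, and repeats were not annotated here. Of the 24-base words of each peak, all were found once in mm9 in 11 of the 14 peaks, against 74.5% of all listed peaks, and the lowest share was 88.7%, in the *Rpl36a* peak.

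The other genes of the pathway were then counted by role, in 5 lists with 47 genes taken from textbook knowledge. A gene-proximal peak was present in 24 of the 47, or 51.1% (interval 37.2 to 64.7%), against 39.6% of protein-coding genes. The counts by role ran from 0 of 7 to 8 of 11. Of the receptor partners, which encode other light chain-like proteins, the heavy chain constant region and surface proteins, 0 of 7 had one, and the interval reaches 35.4%. The median distance from a TSS of these 7 to a peak was 28542 bp.

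Of the kinases and adaptors, 9 of 16 had a gene-proximal peak, and those without were *Lyn*, *Blk*, *Vav1*, *Vav3*, *Plcg2*, *Pik3ap1* and *Lat2*. *Lyn* and *Blk* are among the Src family kinases that phosphorylate the CD79 chains, and *Plcg2* is a phospholipase C gamma downstream of BTK. Close relatives in the same list did have one, namely the Src family kinase *Fyn* and the phospholipase C gamma *Plcg1*. Of the branch that leads to NF-kB, 2 of 4 had one, *Bcl10* and *Malt1*, which encode parts of a scaffold that activates this pathway. Among inhibitors of the signal, 5 of 9 had one, and those without were *Ptpn6*, *Inpp5d*, *Fcgr2b* and *Dok3*, which encode phosphatases, an inhibitory Fc receptor and an adaptor. Of the recombination partners, which are cofactors of RAG cleavage and the factors that repair and join the cut ends, 8 of 11 had one, or 72.7% (interval 43.4 to 90.2%). Those without were *Dntt*, the terminal transferase that is expressed in lymphoid precursors, *Xrcc5* and *Nhej1*. *Dntt* lies within 50 kb of *Blnk* and, like it, had 0 peaks in the range searched. The recombinase genes *Rag1* and *Rag2* had no gene-proximal peak.

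**Figure D4:**
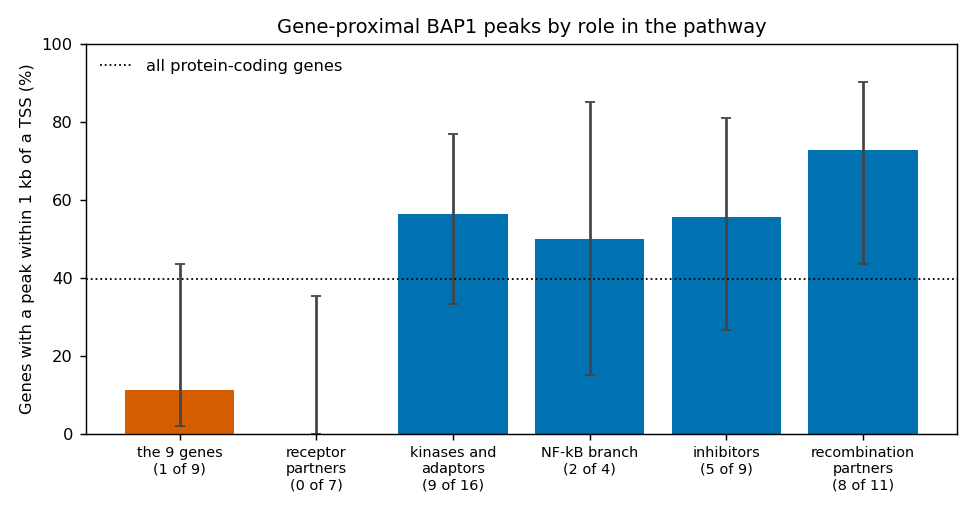
Share of genes with a gene-proximal BAP1 peak (y axis, %) in the 9 genes (orange) and in each list of pathway genes (blue), with 95% Wilson intervals and the share over all protein-coding genes as a dotted line. The share is 0 of 7 in receptor partners and 8 of 11 in recombination partners, and the intervals are wide.

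The pathway genes were also set out by CpG ratio. In the top 2 classes, 21 of 24 pathway genes had a gene-proximal peak, against 72.5% of protein-coding genes there, and the 3 without were *Lyn*, *Vav3* and *Plcg2*. In the lowest 2 classes, 2 of 18 had one, against 6.53%. These 2, *Pik3cd* and *Xrcc6*, were named after their values were seen. The ratio was 0.314 for *Pik3cd*, and 0.176 at the longest transcript of *Xrcc6* but 0.511 at the TSS nearest to its peak. *Ighm*, the heavy chain gene, was not placed in a class, because the annotation does not class it as protein-coding.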

How the data were processed

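Of the 9 samples of the series, 2 stand behind the data used here, an anti-BAP1 ChIP-Seq sample of wild type Ba/F3 cells and an anti-FLAG sample of cells with triple-FLAG-tagged BAP1. The input and histone samples were not analysed here. Reads were mapped to mm9 with Bowtie 1.0.0 and peaks called against input DNA with MACS 1.4.2, per the submitters' processing notes. The values the authors deposited are chromosome, start and end of each peak, with no score, count or p-value. Neither the peak-calling threshold nor how both samples were combined is given in the sources used here, and a different threshold would change each share.

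Peaks were placed on GENCODE M1 (NCBIM37, the same build as mm9), leaving out 37 mitochondrial genes. The middle of a peak is its start plus 100 bases. Signed distances are negative upstream of the TSS. No test was made, since a single list has no replicates. CpG ratios, motifs and the copies of 24-base words were computed from the mm9 genome, and word copies were added after seeing the data. The 9 genes, the 5 lists and the motifs were chosen with earlier results of these data known. All 9 genes are named, with each protein-coding gene that has a TSS within 1 kb of a listed peak, and in each list the smaller class. *Scn4a*, *Fyn*, *Plcg1*, *Pik3cd*, *Xrcc6* and *Ighm* were named outside this rule, and some genes of the lists are counted but not reported by name here. *Syk* was matched through RefSeq synonyms. Distances, merging, motif matches and word copies were checked on simulated data. Other windows and ranges, the edge of the peak, 1 TSS per gene, TSSs of protein-coding transcripts alone and peaks merged within 500 bp were tried as alternatives. Python 3.11.15 was used with numpy 2.4.6, pandas 2.3.3, scipy 1.17.1, pysam 0.24.0 and matplotlib 3.10.9.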

Additional observations from a re-analysis of the deposited data

How the results depend on the processing

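The count of 1 of the 9 genes with a gene-proximal peak was the same with a window of 500 bp or 2 kb, with the edge of the peak, with 1 TSS per gene and with merged peaks. A window of 5 kb gave 3, which were *Btk*, *Syk* and *Vpreb1*. With the TSSs of protein-coding transcripts alone the count was 0, and with each peak given only to the gene with the nearest TSS, an alternative added after seeing the data, it was also 0, since the *Vpreb1* peak then went to *Top3b*. The share of protein-coding genes ranged from 35.1% with the nearest TSS to 42.5% with 5 kb, and that of all genes from 22.2 to 30.1%. A range of 20 kb in place of 50 kb left 8 peaks and 5 of the 9 genes with a peak, against 55.4% of protein-coding genes. A range of 100 kb gave 20 peaks and all 9 genes, against 74.4% of protein-coding genes. Merging left 12 peaks. The count of pathway genes was between 22 and 26 in the alternatives run, against 24. No paired analysis was possible because the samples were combined in a single peak list. Depth is unknown, so that an unlisted site cannot be told from one bound below the threshold of the peak caller.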
